A study of Homo sapiens with 10 samples.

Results

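Mitochondrial biogenesis depends on nuclear genes that switch on the parts of new mitochondria and on nuclear genes that copy and read mitochondrial DNA (mtDNA). A list of 10 such regulators was examined in VEN-sensitive and VEN-insensitive RS4;11 lines. It holds the 3 PGC-1 coactivators PPARGC1A, PPARGC1B and PPRC1, the nuclear factors NRF1, GABPA and ESRRA, and the mtDNA transcription genes TFAM, TFB1M, TFB2M and POLRMT. Members were chosen by symbol and matched through GENCODE to 10 of the 63677 Ensembl gene identifiers in the count files. All 10 passed the filter on low counts and were among the 16756 genes tested.

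RS4;11 is an established cell line of B-cell precursor acute lymphoblastic leukaemia (BCP-ALL) with a KMT2A rearrangement, and VEN (venetoclax) is an inhibitor of the anti-apoptotic protein BCL-2. The 5 VENins lines had been selected by stepwise increases of VEN, up to 100 nM and over 8 months by the study's methods, and the 5 VENsens lines had been grown beside them with the solvent DMSO. The study asked which transcripts differ once the leukaemia cells no longer respond to the drug. One RNA-Seq library was made per line, so that each value stands for a separately grown line derived from a single parental cell line, and the spread between lines does not cover other leukaemias. VENins lines were grown with VEN, which the study's methods describe as washed out before analysis, so that lasting effects of exposure and of selection cannot be told apart in this design.

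PGC-1 coactivators bind nuclear receptors and other transcription factors and raise the transcription of genes for respiration. NRF1, GABP and the oestrogen-related receptor ESRRA bind the promoters of many nuclear genes for respiratory chain subunits and of genes needed for mtDNA expression. Inside the organelle, POLRMT transcribes mtDNA, TFAM bends and packages it and helps to start transcription, TFB2M opens the promoter, and TFB1M methylates the small ribosomal RNA.

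The libraries held between 38491516 and 52960365 reads, of which 20631907 to 28323643 were counted on genes. Levels are given as CPM, the share of a gene in its library's total count after TMM scaling, which aligns the libraries by genes that vary little. Markers of B-cell precursors fitted the label of the cells, with 11 of 12 at 1 CPM or more and a summed level of 3568 to 4017 CPM across libraries. CD24 was at 0. PAX5 was the only one called, with a log2 fold change of -0.31 (edgeR with Benjamini-Hochberg adjusted p = 0.0272). All 4 genes of the KMT2A leukaemia programme, HOXA9, HOXA10, MEIS1 and FLT3, were at 1 CPM or more. Markers of other blood and stromal cells were at 1 CPM or more for 1 of 8 myeloid genes (CSF1R), 1 of 8 T and NK cell genes (NKG7), 0 of 6 erythroid genes and 1 of 6 stromal and endothelial genes (COL1A1). In these bulk samples, fewer cells with a transcript and less of it per cell cannot be told apart.

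None of the 10 regulators passed the test between VENins and VENsens lines. edgeR's quasi-likelihood test blocked the line number, and with Benjamini-Hochberg adjustment over all tested genes it called 0 of 10 at an adjusted p under 0.05, beside 33 of 16756 genes or 0.197%. Of the 33, 6 were higher and 27 lower in VENins lines, a split that depended on the processing, with 65 of 142 higher once length and GC trends were removed and 345 of 726 by DESeq2 without the block. At an unadjusted p under 0.05 it found 1 regulator, PPARGC1A, beside 16.2% of all tested genes. DESeq2 found 0 regulators at that level with the block, beside 1952 of 16756 genes, and 0 without it, beside 2938. DESeq2 called 0 regulators in both, and gave PPARGC1A no adjusted p in either. The log2 fold change was above 0 for 6 of 10 regulators, beside 51.1% of all tested genes, and the median was 0.03 beside 0.0035. With 1 pair left out the median ran from 0.011 without line 3 to 0.047 without line 5. No regulator had groups that did not overlap, as 4.66% of tested genes did in either direction. A p that misses the threshold does not show that there was no difference, so the 95% interval of each fold change is given with its gene.

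**Figure D1:**
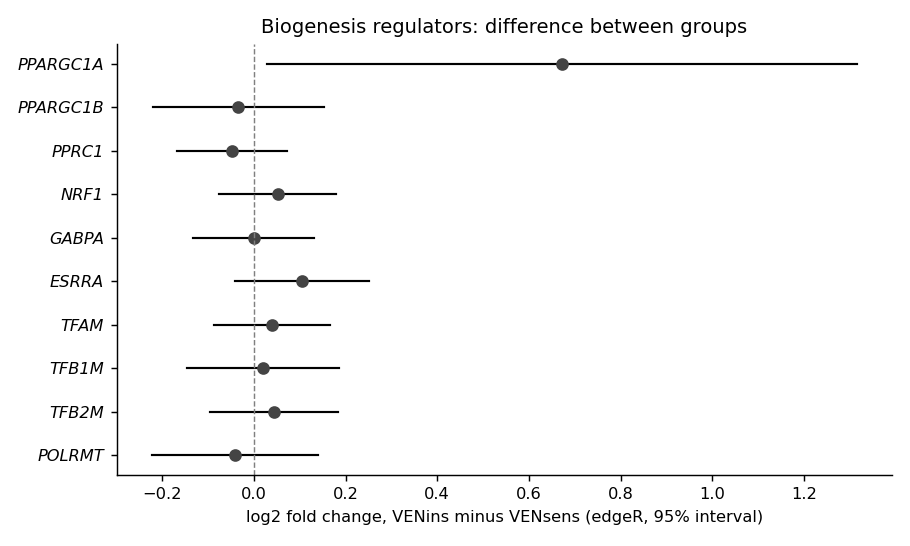
Log2 fold change of the 10 regulators, VENins minus VENsens, with points for the edgeR estimate and bars for its 95% interval. The intervals of 9 genes include 0, and that of PPARGC1A runs from 0.03 to 1.32.

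Among the coactivators, PPRC1 (PRC, a PGC-1 relative induced when cells enter growth) made up nearly the whole family. PPRC1 (ENSG00000148840, chr10:102132994-102150331, plus strand of GRCh38) was at 114, 103, 110, 111 and 108 CPM in VENsens lines 1 to 5 and at 103, 95.3, 103, 114 and 115 CPM in VENins lines 1 to 5. VENins line 2 was the lowest and VENins line 5 the highest of all 10, so that the VENins values enclosed the VENsens values. The means were 109 ± 3.97 CPM and 106 ± 8.36 CPM (SD, n = 5 each), and the log2 fold change was -0.05 with a 95% interval from -0.17 to 0.07 (SE 0.06, edgeR with Benjamini-Hochberg adjusted p = 0.726). With 1 pair left out it ran from -0.081 without line 5 to -0.023 without line 1. Per exon length (RPKM), PPRC1 accounted for 93.3% ± 0.364 of the summed PGC-1 family in VENsens lines and for 93.2% ± 0.674 in VENins lines.

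PPARGC1B (PGC-1β, ENSG00000155846, chr5:149730298-149855022, plus strand) was the second coactivator by level per length. Its values were 16, 16.6, 16.5, 15.8 and 15.6 CPM in VENsens lines 1 to 5 and 18.2, 13.0, 14.6, 17.6 and 15.6 CPM in VENins lines 1 to 5. The VENsens lines lay within about 1 CPM of each other, whereas VENins lines 1 and 4 were above all of them and lines 2, 3 and, narrowly, 5 below. The group means therefore came out close, at 16.1 ± 0.425 and 15.8 ± 2.13 CPM, with a log2 fold change of -0.03 (SE 0.09, 95% interval -0.22 to 0.15, edgeR with Benjamini-Hochberg adjusted p = 0.891).

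PPARGC1A (PGC-1α, ENSG00000109819, chr4:23755041-23904089, minus strand), the coactivator induced by cold, fasting and exercise in other tissues, was barely measured. It had 8, 8, 12, 4 and 6 counts in VENsens lines 1 to 5 and 9, 18, 10, 11 and 12 counts in VENins lines 1 to 5. In CPM these were 0.333, 0.388, 0.423, 0.173 and 0.239 in VENsens lines and 0.423, 0.736, 0.407, 0.432 and 0.523 in VENins lines. VENins line 2 was the highest and VENsens lines 4 and 5 were the lowest, while VENsens line 3 was level with VENins line 1 and above VENins line 3, so the groups overlapped. The means were 0.311 ± 0.104 and 0.504 ± 0.137 CPM. The log2 fold change was 0.67 (SE 0.30, 95% interval 0.03 to 1.32). This was the regulator found at an unadjusted p under 0.05, and its Benjamini-Hochberg adjusted p in edgeR was 0.287. Without the pair of line 2 (log2 fold change 0.60, SE 0.35) or of line 4 (0.56, SE 0.34) no regulator was found at that level. Without the pair of line 5 PPARGC1A (0.57, SE 0.34) was not found at it either, and POLRMT was. VENins exceeded VENsens in 4 of 5 pairs of the same line number. PPARGC1A reached the filter's cutoff of 0.411 CPM in 4 VENins lines and 1 VENsens line, so that it entered the test mainly through the group in which it was higher. At counts this low a difference of a few reads moves the fold, and even its highest value was far under the level of PPRC1 per length.

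**Figure D2:**
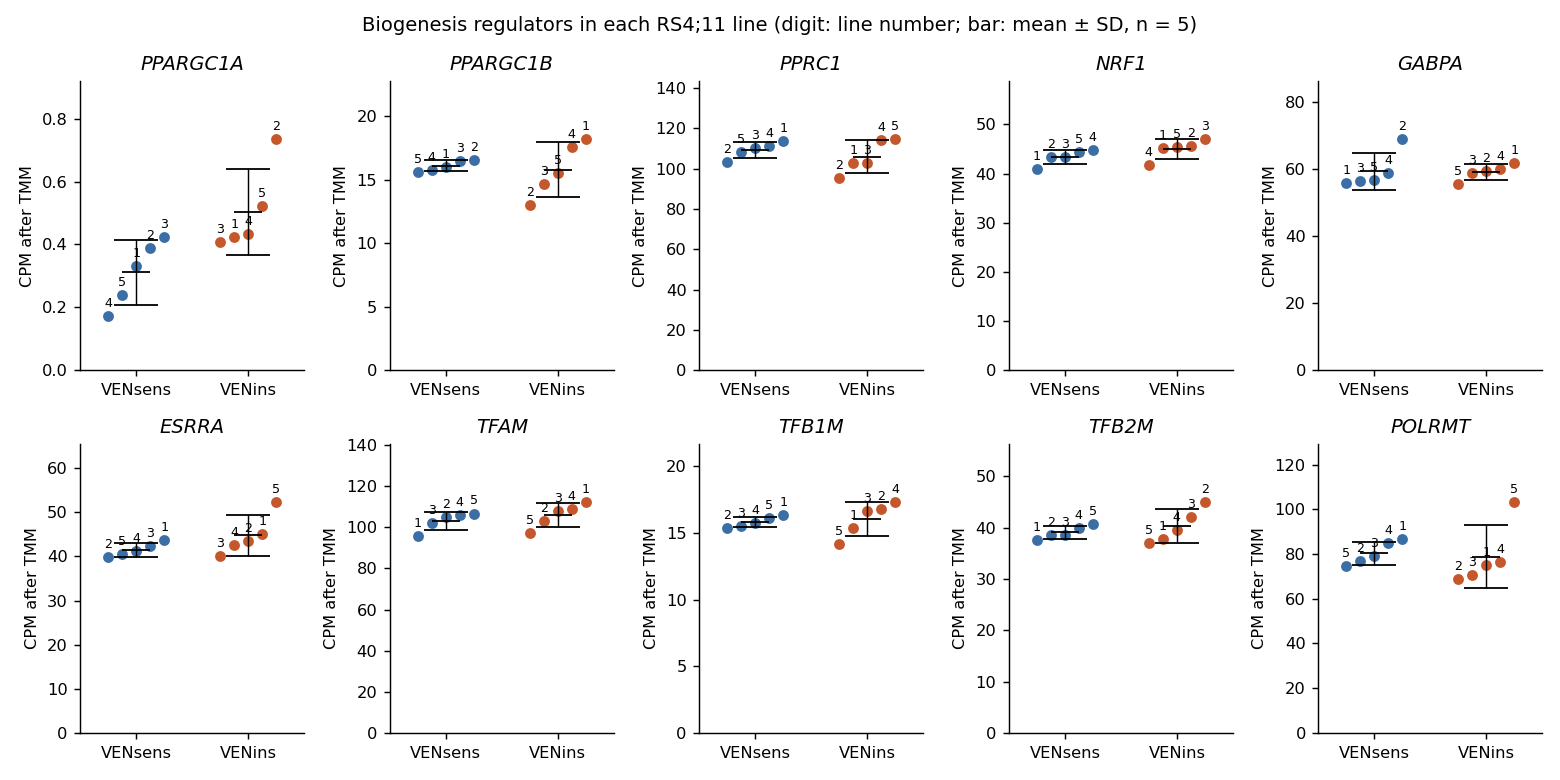
CPM after TMM of each regulator in the 5 VENsens lines (blue) and 5 VENins lines (orange), each axis starting at 0, with the line number above each point and mean ± SD as bars. The groups overlap in all 10 panels, and single lines stand apart for GABPA (VENsens line 2, 68.9 CPM) and POLRMT (VENins line 5, 103 CPM).

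NRF1, an activator that binds as a homodimer at many respiratory genes, was the least variable of the regulators within groups. NRF1 (ENSG00000106459, chr7:129611714-129757082, plus strand) was at 40.9, 43.3, 43.5, 44.9 and 44.4 CPM in VENsens lines 1 to 5 and at 45.2, 45.5, 47.1, 41.6 and 45.5 CPM in VENins lines 1 to 5. Apart from VENins line 4, every VENins line was above every VENsens line, and line 4 was below all VENsens lines except line 1. The means were 43.4 ± 1.52 and 45.0 ± 2.00 CPM, with a log2 fold change of 0.05 (SE 0.06, 95% interval -0.08 to 0.18, edgeR with Benjamini-Hochberg adjusted p = 0.722). This fold change ran from 0.030 without the pair of line 1 to 0.091 without that of line 4. The spread of its log2 CPM within groups was at the 6.79th percentile of all tested genes.

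GABPA, the DNA-binding subunit of GABP (also called NRF2 in this context), did not differ in its mean. GABPA (ENSG00000154727, chr21:25734570-25772460, plus strand) was at 55.6, 68.9, 56.5, 58.6 and 56.6 CPM in VENsens lines 1 to 5 and at 61.9, 59.4, 58.9, 60.0 and 55.5 CPM in VENins lines 1 to 5. VENsens line 2 was the highest of all, and without it 4 of the 5 VENins lines were above the other 4 VENsens lines. The means were 59.3 ± 5.51 and 59.1 ± 2.33 CPM, and the log2 fold change was -0.00029 (SE 0.06, 95% interval -0.13 to 0.13, edgeR with Benjamini-Hochberg adjusted p = 0.999). With the pair of line 2 left out it was 0.05. GABPA shares 7.61% of its exon bases with ATP5PF on the other strand, and a processed pseudogene, GABPAP, took up 15% to 21.7% as many counts as GABPA, so the counting could split its reads. GABPB1, which encodes the partner subunit that activates transcription, averaged 81.1 ± 2.17 CPM over the VENsens lines and 87.1 ± 4.28 CPM over the VENins lines, higher in 4 of 5 pairs, with a log2 fold change of 0.10 (SE 0.06, edgeR with Benjamini-Hochberg adjusted p = 0.386).

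ESRRA (ENSG00000173153, chr11:64305572-64316743, plus strand), an orphan nuclear receptor that takes PGC-1 as its coactivator, had the largest log2 fold change after PPARGC1A. It was at 43.8, 39.8, 42.4, 41.1 and 40.5 CPM in VENsens lines 1 to 5 and at 45.1, 43.6, 40.1, 42.7 and 52.5 CPM in VENins lines 1 to 5. VENins line 5 was the highest by far, and the other 4 VENins lines lay within or just above the VENsens range. The means were 41.5 ± 1.57 and 44.8 ± 4.65 CPM, with a log2 fold change of 0.10 (SE 0.07, 95% interval -0.04 to 0.25, edgeR with Benjamini-Hochberg adjusted p = 0.474). Leaving out the pair of line 5 gave 0.04. ESRRA shares 9.37% of its exon bases with TRMT112 on the other strand, and its pseudogenes ESRRAP1 and ESRRAP2 had at most 4.04% and 3.64% as many counts.

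TFAM (ENSG00000108064, chr10:58385022-58399221, plus strand), which packages mtDNA, was at 95.6, 105, 102, 106 and 107 CPM in VENsens lines 1 to 5 and at 113, 103, 108, 109 and 97.5 CPM in VENins lines 1 to 5. VENins lines 1, 3 and 4 were above all VENsens lines, whereas VENins line 5 was above only VENsens line 1. The means were 103 ± 4.52 and 106 ± 5.86 CPM. The log2 fold change was 0.04 (SE 0.06, edgeR with Benjamini-Hochberg adjusted p = 0.8), and its 95% interval from -0.09 to 0.17 corresponds to a ratio of VENins to VENsens between 0.941 and 1.12.

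TFB2M (ENSG00000162851, chr1:246540560-246566324, minus strand) was at 37.6, 38.5, 38.6, 40 and 40.6 CPM in VENsens lines 1 to 5 and at 37.9, 45.1, 42.1, 39.6 and 37.0 CPM in VENins lines 1 to 5. VENins lines 2 and 3 were above the VENsens range, VENins line 5 was below it, and the other 2 were inside. The means were 39.1 ± 1.23 and 40.3 ± 3.29 CPM, with a log2 fold change of 0.04 (SE 0.07, 95% interval -0.10 to 0.18, edgeR with Benjamini-Hochberg adjusted p = 0.797). Its paralogue TFB1M (ENSG00000029639, chr6:155257509-155314493, minus strand) was at 16.4, 15.4, 15.5, 15.7 and 16.1 CPM in VENsens lines 1 to 5 and at 15.4, 16.8, 16.6, 17.4 and 14.2 CPM in VENins lines 1 to 5. As for TFB2M, VENins lines 2 and 3 were above the VENsens range and line 5 was below it, and line 4 was above it too. The means were 15.8 ± 0.409 and 16.1 ± 1.27 CPM, with a log2 fold change of 0.02 (SE 0.08, 95% interval -0.15 to 0.19, edgeR with Benjamini-Hochberg adjusted p = 0.930). TFB1M shares 7.86% of its exon bases with TIAM2 on the other strand. The ratio of TFB2M to TFB1M per length was 3.65 ± 0.147 in VENsens and 3.72 ± 0.229 in VENins lines, and ranged from 3.38 to 3.97 over all lines.

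POLRMT (ENSG00000099821, chr19:617224-633604, minus strand), the mitochondrial RNA polymerase, split the VENins lines. It was at 86.5, 77.0, 79.1, 85.0 and 74.5 CPM in VENsens lines 1 to 5 and at 75.1, 68.6, 70.7, 76.5 and 103 CPM in VENins lines 1 to 5. VENins line 5 was above every other library, VENins lines 2 and 3 were below every VENsens line, and VENins was lower in 4 of 5 pairs. The means were 80.4 ± 5.17 and 78.9 ± 14.1 CPM, with a log2 fold change of -0.04 (SE 0.08, 95% interval -0.22 to 0.14, edgeR with Benjamini-Hochberg adjusted p = 0.861). With the pair of line 5 left out, the log2 fold change was -0.17 (SE 0.05) with a Benjamini-Hochberg adjusted p of 0.160 in edgeR. Without the pair of line 1 it was -8.75e-06, and without that of line 2, 3 or 4 it was -0.010, -0.012 or -0.014. The ratio of TFAM to POLRMT per length was lowest in VENins line 5, at 0.861, and between 1.01 and 1.39 in the other 9 lines.

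VENins line 5 also differed from the rest in how its counts followed base composition, which was examined after its POLRMT value had been seen. The median deviation of log2 CPM in genes with over 60% GC (2227 tested genes), minus that in genes with under 40% GC (2401 genes), was 0.15, -0.19, 0.02, 0.01 and -0.04 in VENsens lines 1 to 5. In VENins lines 1 to 5 it was -0.12, -0.07, -0.11, -0.02 and 0.38. Line 5 of the VENins group thus stood highest on this scale, and POLRMT (66.3% GC in its longest transcript) and ESRRA (63.2%) are the most GC-rich regulators, with GABPA (36.4%) and TFAM (38.4%) the poorest. Correcting each library for its trends on GC content and transcript length gave POLRMT a log2 fold change of -0.02 (SE 0.05) and ESRRA one of 0.09 (SE 0.04). The part of this trend in the level of either gene was not tested.

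POLRMT also has a copy that takes reads. POLRMTP1, a processed pseudogene on chromosome 17, was at 52.8, 41.5, 45.8, 48.9 and 43.6 CPM in VENsens lines 1 to 5 and at 45.5, 42.7, 42.8, 45.6 and 54.6 CPM in VENins lines 1 to 5. It followed the same order at its top as POLRMT, with VENins line 5 and then VENsens line 1 the highest, and had 52.8% to 62.2% as many counts as POLRMT. Whether those reads came from the pseudogene or from POLRMT cannot be read from the counts. With pseudogene counts added to their parent genes, the log2 fold change of POLRMT was -0.03 (SE 0.08).

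**Figure D3:**
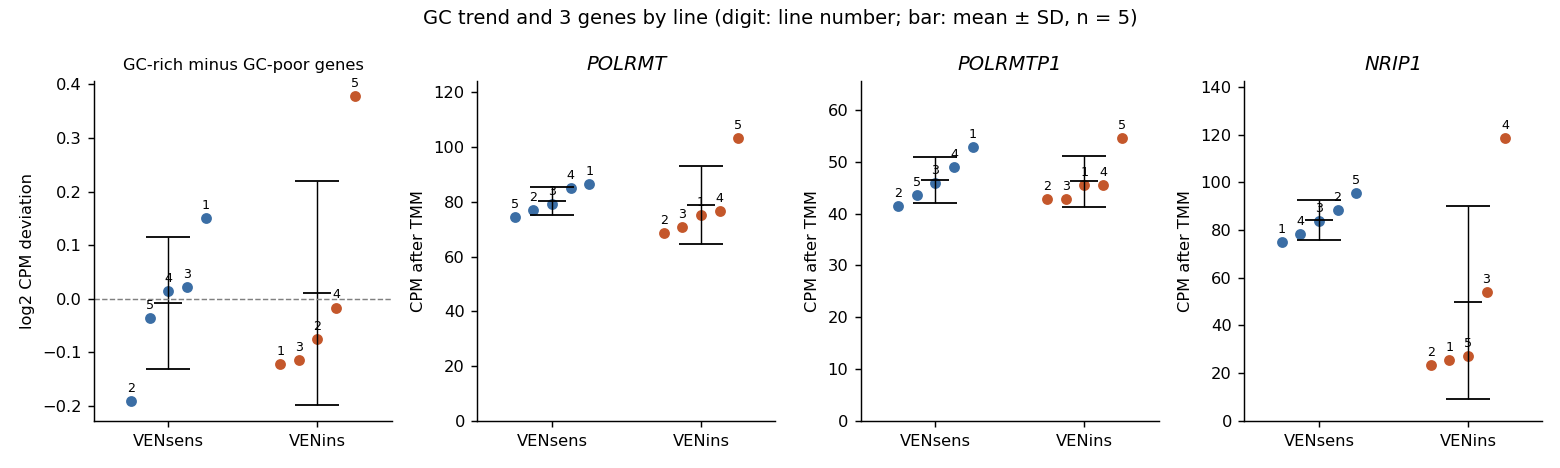
For each line, the GC trend (median log2 CPM deviation of genes over 60% GC minus that of genes under 40% GC) and the CPM after TMM of POLRMT, POLRMTP1 and NRIP1, with the line number above each point and mean ± SD as bars. VENins line 5 is highest for the GC trend, POLRMT and POLRMTP1, and VENins line 4 is highest for NRIP1, at 119 CPM.

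Levels of different genes can be compared per exon length. Over all 10 libraries TFB2M was the highest at 21.5 ± 1.32 RPKM, followed by TFAM at 18.6 ± 0.921, PPRC1 at 17.7 ± 1.05, POLRMT at 15.5 ± 1.96 and ESRRA at 14.2 ± 1.22 RPKM. The levels of POLRMT and GABPA leave out the reads counted on their pseudogenes, and with those added the order would differ for POLRMT. GABPA at 10.9 ± 0.736 and NRF1 at 10.7 ± 0.454 RPKM came next. TFAM and PPRC1, POLRMT and ESRRA, and GABPA and NRF1 were neighbours whose levels lay within their spread, whereas TFB1M at 5.83 ± 0.329 RPKM was clear of the genes above it. PPARGC1B followed at 1.24 ± 0.113 RPKM and PPARGC1A at 0.0375 ± 0.0141 RPKM, so that the 3 coactivators spanned a wider range of levels than the other 7 genes. Per length PPARGC1A made up 0.149% ± 0.0508 of the PGC-1 family in VENsens lines and 0.252% ± 0.0868 in VENins lines. This share rests on 4 to 18 counts per library and was not tested. In pair 3 it was 0.207% in the VENins and 0.200% in the VENsens line, though PPARGC1A itself was lower in the VENins line (0.407 against 0.423 CPM).

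**Figure D4:**
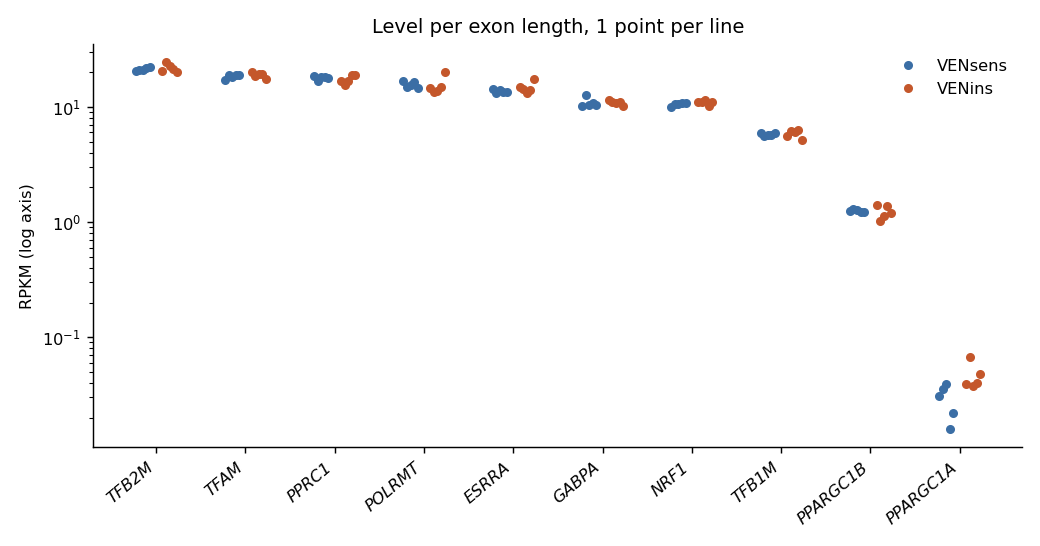
RPKM (CPM after TMM per kilobase of exon, log axis) of the 10 regulators in each VENsens (blue) and VENins (orange) line, ordered by mean. TFB2M is highest at 21.5 RPKM and PPARGC1A lowest at 0.0375 RPKM.

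Promoters of several regulators carry letters like those bound by NRF1 and GABP, and those of 3 genes are shown for that reason. RefSeq windows from 250 bases before to 50 bases after the start (GRCh38.p14) were searched for 9 regulators, all but NRF1. Both strands were searched for an NRF1 core (GCATGCGC, read on the other strand as GCGCATGC), a GABP or ETS motif (CCGGAAG, or CTTCCGG) and an oestrogen-related receptor element (TCAAGGTCA, or TGACCTTGA). The NRF1 core was present in 4 of the 9, ESRRA, TFB1M, TFB2M and POLRMT, beside 3.05% of all 35116 windows and 6.62% of tested genes with a window. The ETS motif was present in 3 of the 9, GABPA, TFB1M and POLRMT, beside 10.3% of windows and 22.4% of tested genes. The receptor element was in 0 of the 9, beside 0.353% of windows. The windows of PPARGC1A, PPARGC1B, PPRC1 and TFAM held none of these letters, which says nothing about binding. The sequences below run 5′ to 3′ on the gene's strand, only as far as they lie outside annotated exons, with the motif letters in capitals. They cover chr11:64305465-64305523 for ESRRA, chr6:155314533-155314646 for TFB1M and chr19:633605-633699 for POLRMT.
ESRRA: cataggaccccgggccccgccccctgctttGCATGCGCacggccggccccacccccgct
TFB1M: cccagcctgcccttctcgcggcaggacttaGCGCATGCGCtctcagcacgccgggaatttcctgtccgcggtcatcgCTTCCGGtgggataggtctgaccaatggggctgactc
POLRMT: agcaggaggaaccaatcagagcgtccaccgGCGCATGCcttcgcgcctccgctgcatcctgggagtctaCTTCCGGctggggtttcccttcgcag
In TFB1M the NRF1 letters of both strands overlap and begin 132 bases before the start, with the ETS letters at 85. POLRMT has a similar arrangement, with the NRF1 core at 132 and the ETS motif at 93 bases before the start, and a further overlapping pair of NRF1 cores from 24 bases before it. Across tested genes, the median log2 fold change was 0.016 for the 680 genes with an NRF1 core in the window and -0.0022 for those without it, and 0.0083 for the 2306 with the ETS motif and -0.0049 for those without it. The median was lower for the 27 genes with the receptor element, at -0.0465, beside -0.0012 for those without it.

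Around the regulators, 31 of 36 partners of PGC-1 and the nuclear factors were tested, and edgeR called 0 of them after Benjamini-Hochberg adjustment. PRKAA2, PPARG, RXRB, ESRRG and PERM1 did not pass the filter. RXRB and PERM1 were at 0 CPM in every library, and whether the cells or the counting gave this was not tested. At an unadjusted p under 0.05 edgeR found 1 higher and 6 lower in VENins lines, 22.6% of the partners beside 16.2% of all tested genes. DESeq2 with the block called 2, beside 219 of 16756. The log2 fold change was above 0 for 11 of 31 partners, with a median of -0.03. This direction turned with the length and GC trends removed (17 of 31, median 0.0036) and without the pair of line 2 (16 of 31, median 0.0068). The lowest was NRIP1 (RIP140), a corepressor of nuclear receptors that opposes PGC-1 and ESRRA. NRIP1 was at 75, 88.3, 84.0, 78.2 and 95.7 CPM in VENsens lines 1 to 5 and at 25.4, 23.4, 54.0, 119 and 27.1 CPM in VENins lines 1 to 5. VENins lines 1, 2, 3 and 5 were below every VENsens line, and VENins line 4 was above every one of them. The log2 fold change was -1.05 (SE 0.26, 95% interval -1.61 to -0.49), with a Benjamini-Hochberg adjusted p of 0.0967 in edgeR. With the pair of line 4 left out it was -1.47 with a Benjamini-Hochberg adjusted p of 2.25e-05 in edgeR. With every line kept and no filter on low counts, the SE of NRIP1 was 0.07 and edgeR called it, with a Benjamini-Hochberg adjusted p of 2.89e-44. No other setting called it at 0.05. The Benjamini-Hochberg adjusted p was 0.184 in DESeq2 with the block (SE 0.45), 0.331 in DESeq2 without it, 0.229 in edgeR without the block (log2 fold change -0.75) and 0.561 in edgeR without the pair of line 2 (-0.83).

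Other partners differed less. RXRA, the partner of several nuclear receptors, was at 2.63 ± 0.504 and 2.25 ± 0.741 CPM, with a log2 fold change of -0.23 and an SE of 0.20, which ran from -0.43 without the pair of line 4 to -0.057 without that of line 5. DESeq2 with the block called CREBBP and HCFC1, both lower in VENins lines, which were named after their values were seen. CREBBP, an acetyltransferase recruited by PGC-1, averaged 144 ± 7.83 CPM over the VENsens lines and 123 ± 4.67 CPM over the VENins lines, without overlap between groups. Its adjusted p by Benjamini-Hochberg was 0.0843 in edgeR and 0.0167 in DESeq2. Groups did not overlap for 1 partner that was higher and 1 that was lower, beside 4.66% of all tested genes in either direction. HCFC1, a cofactor of GABP and of PGC-1 family members, was at 288 ± 10.8 and 253 ± 21.6 CPM, lower in all 5 pairs, with a Benjamini-Hochberg adjusted p of 0.115 in edgeR and 0.0458 in DESeq2.

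Genes that replicate and maintain mtDNA showed no call in edgeR either. All 26 were tested, edgeR called 0 and found 5 at an unadjusted p under 0.05, each higher in VENins lines (19.2%, beside 7.79% of all tested genes in that direction). DESeq2 called 0 with the block, beside 219 of 16756 genes. Without the block it called 3 (SSBP1, SUCLG1 and SLC25A33), beside 726. At an unadjusted p under 0.05 edgeR found 1 of 26 without the pair of line 2, beside 1411 of 16770 tested genes. For 16 of 26 the log2 fold change was above 0, and the median was 0.03. It was 0.0038 without the pair of line 2 (14 of 26 above 0), 0.013 without that of line 5 and 0.010 with the length and GC trends removed. SLC25A33, a mitochondrial carrier of pyrimidine nucleotides, averaged 16.1 ± 1.19 CPM over the VENsens lines and 18.6 ± 0.366 CPM over the VENins lines, higher in all 5 pairs, as 7.61% of tested genes were, with a log2 fold change of 0.22 (SE 0.07, edgeR with Benjamini-Hochberg adjusted p = 0.180). SUCLG1, a subunit of succinate-CoA ligase tied to the mtDNA nucleotide pool, was at 73.8 ± 4.61 and 83.2 ± 3.40 CPM, also higher in all 5 pairs, with a log2 fold change of 0.17 (SE 0.06). At the other end, LIG3, the mitochondrial DNA ligase, was at 45.9 ± 2.3 and 41.7 ± 4.15 CPM, and TYMP, which degrades thymidine, was at 1.49 ± 0.213 and 1.33 ± 0.358 CPM. Their log2 fold changes were -0.14 (SE 0.07) and -0.18 (SE 0.17), and that of LIG3 was -0.046 with the length and GC trends removed.

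Genes for mitochondrial transcription beyond the list and for RNA handling were similar. Of 31 symbols 30 were matched and tested, edgeR called 0 and found 3 at an unadjusted p under 0.05, each higher in VENins lines (10%, beside 7.79% of all tested genes in that direction). DESeq2 called 0 with the block and 1 (MTERF3) without it, beside 219 and 726 of 16756 genes. At an unadjusted p under 0.05 in either direction, edgeR found 1 without the pair of line 2, beside 1411 of 16770 tested genes. It found 6 without that of line 5, beside 2763 of 16801. For 21 of 30 the log2 fold change was above 0, with a median of 0.05, or 0.025 without the pair of line 2. HSD17B10, a subunit of mitochondrial RNase P, averaged 48.7 ± 5.83 CPM over the VENsens lines and 55.7 ± 4.73 CPM over the VENins lines (log2 fold change 0.20, SE 0.08), and MTERF3, a repressor of mtDNA transcription, was at 50 ± 2.62 and 57.3 ± 3.53 CPM (0.19, SE 0.06). PTCD2, which acts on mitochondrial transcripts, had a log2 fold change of -0.13 (SE 0.10), which was -0.041 with the length and GC trends removed and ran from -0.22 without the pair of line 4 to -0.052 without that of line 5. Without the pair of line 2 HSD17B10 had 0.12. PRORP, the nuclease subunit of the same RNase P, had -0.19 with an SE of 0.23 at under 3 CPM in every line. The products of these genes could not be examined, since all 37 genes on the mitochondrial chromosome were listed at 0 in every library.

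Textbook targets of NRF1 and GABP, mostly subunits of the respiratory chain, were the list with the largest share of values above 0. All 20 were tested, and edgeR called 0 after Benjamini-Hochberg adjustment. DESeq2 called 1 (UQCRB) with the block and 5 without it, beside 219 and 726 of 16756 genes. At an unadjusted p under 0.05 edgeR found 14 of 20, each higher in VENins lines, beside 7.79% of all tested genes in that direction. In either direction it found 5 of 20 without the pair of line 2, beside 1411 of 16770 tested genes. Without that of line 4 it found 9 of 20, beside 2511 of 16768. With every pair kept, 2710 of 16756 tested genes were found in either direction. The log2 fold change was above 0 for 18 of 20 and the median was 0.14. Higher respiratory genes in VENins lines were known from earlier work on these counts, so this is a description and no independent support. UQCRB, a subunit of complex III, was at 233, 229, 241, 219 and 227 CPM in VENsens lines 1 to 5 and at 260, 325, 290, 250 and 244 CPM in VENins lines 1 to 5. Each VENins line exceeded each VENsens line, and the log2 fold change was 0.25 (SE 0.06, edgeR with Benjamini-Hochberg adjusted p = 0.0900). Groups did not overlap for 5 targets that were higher and 1 that was lower, beside 4.66% of all tested genes in either direction.

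COX6A1, a subunit of complex IV, averaged 45.4 ± 4.16 CPM over the VENsens lines and 53.3 ± 2.63 CPM over the VENins lines (log2 fold change 0.23, SE 0.07, and 0.15 without the pair of line 2), without overlap. The 2 targets below 0 were ALAS1, the first enzyme of haem synthesis, with -0.065 (SE 0.06), and TOMM20, a receptor of the import channel. TOMM20 was at 465 ± 11.3 and 437 ± 24.5 CPM, lower in every VENins line than in any VENsens line, with a log2 fold change of -0.09 (SE 0.05, edgeR with Benjamini-Hochberg adjusted p = 0.391) and -0.057 without the pair of line 5. Target transcripts were short, with a median of 1301 bases beside 2666.5 for all tested genes and 4477.5 for the regulators. The median deviation of transcripts under 1500 bases minus that of transcripts over 5000 bases was -0.02, -0.20, 0.01, -0.08 and -0.06 in VENsens lines 1 to 5. It was -0.0027, 0.12, 0.08, 0.05 and 0.13 in VENins lines 1 to 5, so that 4 of the 5 VENins lines were above all VENsens lines. Corrected for both trends, the targets had a median of 0.11, with 18 of 20 above 0. In that fit 11 of 20 were at an unadjusted p under 0.05, beside 2997 of 16756 tested genes.

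**Figure D5:**
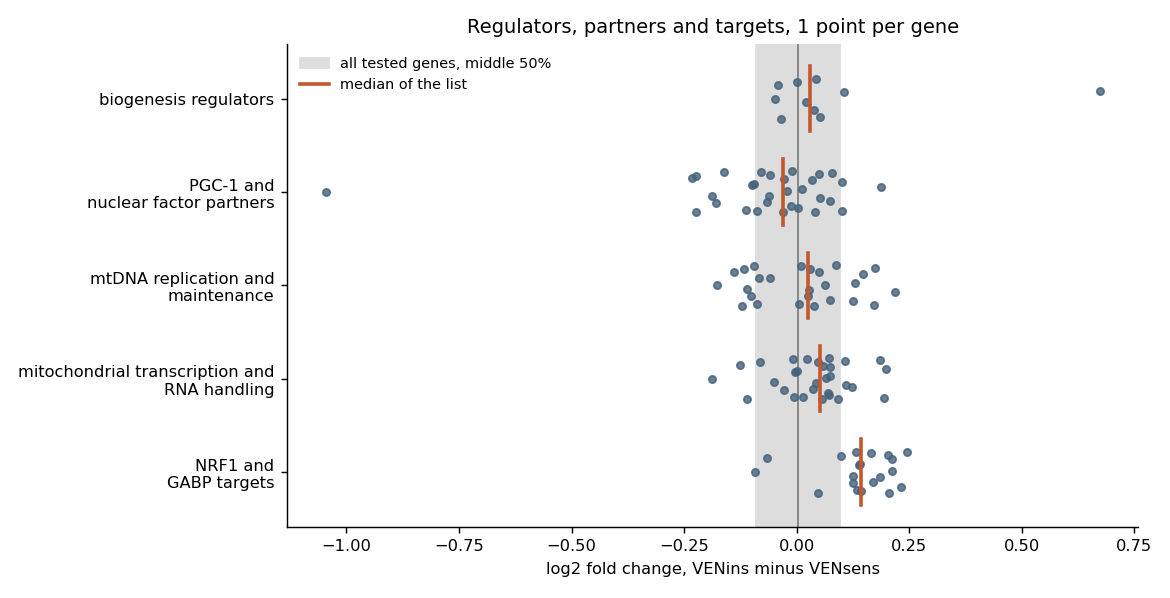
Log2 fold change, VENins minus VENsens, of each tested gene in 5 lists, with the median of each list as a vertical bar and the middle 50% of all tested genes in grey. The regulators have a median of 0.03, the NRF1 and GABP targets one of 0.14, and NRIP1 is the point at -1.05.

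The gene most like each regulator across the 10 libraries was found among 11138 protein-coding genes at 1 CPM or more, as a description of these libraries. POLRMT was closest to INTS1, a subunit of the Integrator complex (Pearson r = 0.990, Spearman rho = 0.988, n = 10), and r was 0.971 without the 2 libraries farthest from the median of POLRMT. PPRC1 was closest to CAD, the enzyme that starts pyrimidine synthesis (r = 0.969, rho = 0.903), and GABPA to NUFIP2 (r = 0.963, rho = 0.964). ESRRA was closest to RNPEPL1 (r = 0.959), TFAM to SRPK1 (r = 0.950), TFB1M to MPP7 (r = 0.936), PPARGC1B to GAS8 (r = 0.933), NRF1 to LCLAT1 (r = 0.928) and TFB2M to OARD1 (r = 0.911). Without the 2 farthest libraries the r was 0.568 for TFB2M, 0.775 for ESRRA, 0.783 for TFB1M and 0.817 for PPARGC1B, so these rest in part on single lines. PPARGC1A was closest to ZNF83 (r = 0.960), on 4 to 18 counts per library. The highest r among so many candidates over 10 libraries can be high without any link, and the best r of other genes was not examined.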

How the data were processed

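The authors deposited raw counts of reads per gene for each library, without normalization. The submitters' processing notes name hg19 and GRCh37, bcl2fastq 2.20.0.422, Bowtie2 2.3.5.1, SAMtools 1.9 and HTSeq 0.9.1. Gene names, positions and lengths came from GENCODE 29 (GRCh38) by identifier. The 5 summary lines of each file were left out, and reads counted on genes were 52.7% to 54.2% of all. Identifiers without a name held 0.907% of counts.

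The tests ran in edgeR 4.0.16 under R 4.3.3: filterByExpr by group (minimum count 10, total 15), TMM, and the quasi-likelihood test with the line number as a block, since the study describes a paired analysis. Benjamini-Hochberg adjustment covered all tested genes, with a threshold of 0.05. The filter's grouping was set after seeing both forms, by group (33 called) and by design matrix (49 called), to follow earlier processing of these counts. Alternatives included DESeq2 1.42.0. Log2 CPM used a prior count of 2. Figures used matplotlib in Python.

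Members and lists were chosen with earlier results of these data known. Named were all members, any called gene of the other lists, up to 2 of the highest and 2 of the lowest log2 fold changes of each at 1 CPM or more, and the gene most correlated with each member. MRM1 was not matched. Motifs were searched in RefSeq promoter windows.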

Additional observations from a re-analysis of the deposited data

Results flagged for a closer look

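Of 20 groups of 5 lines examined for a value far from the others, 2 had one, and chance gives about 1. GABPA was at 68.9 CPM in VENsens line 2, whose gap to the next line was 0.775 of the group's range. That line had the lowest GC trend of all 10, -0.19, and the lowest trend of short over long transcripts, -0.20, and their part in the GABPA value was not tested. POLRMT was at 103 CPM in VENins line 5, with a gap of 0.773 of the range. That line also had the highest GC trend, 0.38, and the part of the trend in the POLRMT value was not tested.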

How the results depend on the processing

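The count of called regulators was 0 under all settings tried. PPARGC1A could not be called in some of them, since DESeq2 gave it no adjusted p with or without the block. It was also not among the 9 regulators tested when at least 10 counts were required in every library. Of all tested genes, 33 were called, against 149 with no replicate block, 219 by DESeq2 with the block, 726 by DESeq2 without it, 664 with no filter on low counts, 142 with length and GC trends taken out, and 293 at an adjusted p under 0.10. Filtering with the design matrix, an alternative added after seeing the data, gave 49. Leaving out each pair in turn gave 6 to 331: 57 without pair 1, 6 without pair 2, 17 without pair 3, 331 without pair 4 and 9 without pair 5. Same-numbered lines did not deviate together (r from -0.103 to 0.028), and no VENsens line correlated best with the VENins line of its own number. The block and the counts of pairs given above therefore rest on the numbering alone. Partners called were 1 with no replicate block, 2 by DESeq2 with it, 3 by DESeq2 without it, 3 with no filter, 1 with trends taken out, 2 at an adjusted p under 0.10, and 0 to 1 with a pair left out. DESeq2 without the block called 3 mtDNA maintenance genes, 1 RNA handling gene and 5 targets. Targets called were also 1 by DESeq2 with the block, 4 with no filter, 1 at an adjusted p under 0.10 and 0 to 1 with a pair left out. With no filter NRIP1 had an SE of 0.07 in place of 0.26. Signs near 0 turned. PPARGC1B ran from -0.0893 without pair 1 to 0.0405 without pair 2, with 0.00085 without pair 3 and 0.0762 with trends taken out, and PPRC1 was at 0.0214 with trends taken out. GABPA ran from -0.038 without pair 1 to 0.0536 without pair 2, with 0.0073 without pair 5, 0.0016 by DESeq2 with the block and with RLE factors, 0.0014 with no filter and 0.0324 with trends taken out. TFAM ran from -0.0094 without pair 1 to 0.0818 without pair 5. TFB1M ran from -0.0109 without pair 4 to 0.0704 without pair 5, with -0.0053 without pair 2, -0.00078 without pair 3 and -0.0331 with trends taken out. TFB2M ran from -0.0021 without pair 2 to 0.0882 without pair 5, with -0.0024 with trends taken out, and PRORP from -0.343 without pair 3 to 0.0849 without pair 2. The causes were not tested. Depth limits PPARGC1A most, at 4 to 18 counts.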
